A study of Rattus norvegicus with 4 samples.

Results

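The genes described here encode subunits of the receptors through which neurons respond to glutamate, GABA, glycine and acetylcholine, measured as poly(A) RNA in embryonic rat cortical cells. They were chosen by gene name, as the rows for ionotropic and metabotropic glutamate, GABA-A, GABA-B, glycine and nicotinic acetylcholine receptor subunits, with at least 0.5 FPKM in at least 1 library. FPKM is the read count scaled by gene model length and by the counted reads of the library. Of the 18755 genes in each file, 61 matched the names and 43 reached this level, of which 31 did so in all 4 libraries. Grin2a, Grin3a and Grm8 reached it on NL-SFMA alone and Grik1 on N-SFMA alone, so for these 4 some difference between libraries follows from the choice. Chrna3, Chrna5, Chrnb1, Chrnb4, Gabrb1, Grin2d, Grm3 and Grm5 reached it in 2 or 3 libraries. Their differences may follow from the choice in part. All cells came from the cerebral cortex of Sprague Dawley embryos at day 16 and were kept for 24 h in Neurobasal medium with 2% B27 and 1% PS, at 100000 cells per well. The groups differ in the hydrogel under the cells, which was plain SFMA, one of the variants N-SFMA and L-SFMA (also labelled L@SFMA), or NL-SFMA (also labelled NL@SFMA). Where 4 values follow each other, the first is for plain SFMA, the second for N-SFMA, the third for L-SFMA and the last for NL-SFMA. The labels do not explain the letters, and the series concerns cell-cell adhesion cues in hydrogels that promote neural growth. Each hydrogel had 5 parallel wells but 1 library, and the labels do not say whether wells were pooled. A spread between replicates was thus not at hand for any difference below.

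Ionotropic glutamate receptors are tetramers: AMPA and kainate receptors carry fast excitation, and NMDA receptors need both glutamate and depolarisation to open. Metabotropic glutamate and GABA-B receptors act through G proteins. GABA-A, glycine and nicotinic receptors are pentamers, and in the immature cortex GABA and glycine often depolarise the cell because its chloride is high. Which subunits a neuron makes changes as it matures, so the set of subunits is a common readout of neuronal age.

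The 4 libraries held between 14172205 and 17553098 counted reads, of which the 43 subunits took 0.107%, 0.132%, 0.144% and 0.165%. Of 8 markers of excitatory cortical neurons, such as Neurod6 and Tbr1, 8 were detected in each library, with a summed level of 534 to 710 FPKM. The 6 general neuronal markers summed to 2579, 3506, 2784 and 2653 FPKM, and none was at 0. Of this sum, Tubb3 alone (1766 bases) gave 1882, 2602, 1957 and 1659 FPKM. On NL-SFMA 4 of the 6 were higher and 2 lower than on SFMA. Map2 (8285 bases) was at 24.7, 56.5, 61.1 and 98.0 FPKM and Dcx (8857 bases) at 68.3, 140, 161 and 266. Rbfox3 was at 25.7, 26.5, 29.5 and 18.1 FPKM. Interneuron markers summed to 375, 276, 247 and 138 FPKM, and 8 of 10 were lower in NL-SFMA than in SFMA. Of this sum, Sst alone (a gene model of 657 bases) gave 204, 110, 82.3 and 34.5 FPKM. Radial glial markers summed to 1564, 706, 698 and 784 FPKM, and 10 of 10 were lower in N-SFMA and in NL-SFMA than in SFMA. Vim (1765 bases) alone gave 1088, 535, 486 and 633 FPKM of it, and Fabp7 (1192 bases) 264, 46.7, 58.9 and 41.6. Of all genes that reached 0.5 FPKM, 52.2% were lower in N-SFMA than in SFMA and 54.2% in NL-SFMA. The trend with gene length described below was not removed from the marker levels. Astrocyte markers summed to 291, 143, 183 and 79.6 FPKM, and on NL-SFMA 7 were lower and 1 higher than on SFMA. Id3 (960 bases) gave 178, 76.0, 107 and 33.2 FPKM of this sum and Aldoc (1648 bases) 96.3, 58.1, 62.5 and 37.6. Gfap was at 2.69, 1.07, 2.32 and 1.22 FPKM, and Aqp4, the higher one, at 0.0290, 0.0660, 0.0312 and 0.192. Microglial markers summed to 22.2, 7.76, 15.4 and 5.62 FPKM, and 3 of 7 were at 0 in NL-SFMA. Oligodendrocyte lineage markers stood at 8.47 to 16.2 FPKM, endothelial and pericyte markers at 0.849 to 1.31 FPKM and meningeal fibroblast markers at 1.64 to 2.45 FPKM, while erythroid markers went from 547 FPKM in SFMA to 69.7 in NL-SFMA. The part of this cell makeup in the receptor differences was not tested. In bulk RNA, fewer cells of a type and less RNA per cell cannot be told apart.

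Most receptor subunits had their lowest level on plain SFMA and their highest on NL-SFMA. This held for 23 of the 43 subunits (53.5%), against 22.9% of the 13670 genes that reached 0.5 FPKM in some library. The reverse order, highest on SFMA and lowest on NL-SFMA, was seen for Grik4, Chrne and Chrng, or 6.98% of the subunits against 26.9% of all genes. A gene is called here when its FPKM plus 0.1 differs at least 2-fold between libraries. This is a rule of size without a test. On NL-SFMA against SFMA, 19 subunits were past 2-fold higher (44.2%, with 14.7% of all genes called higher) and 1 lower (2.33%, with 20.1% of all genes). Grin2a, Grin3a and Grm8, which reached 0.5 FPKM on NL-SFMA alone, are among both the 23 and the 19, and their direction follows in part from the choice. Grm3 and Grm5, which reached 0.5 FPKM on every hydrogel but SFMA, are among both too. Their direction may also follow in part from the choice. On L-SFMA against SFMA the counts were 5 higher (8.19% of all genes) and 2 lower (5.75%), and on N-SFMA against SFMA 3 higher (3.45%) and 4 lower (6.44%), or 6.98% and 9.3% of the subunits. The median log2 difference of the subunits was 0.36, 0.49 and 0.92 for N-SFMA, L-SFMA and NL-SFMA, where the median of all genes was -0.03, 0.06 and -0.12. Over all 61 rows that match the names, with no minimum level, the medians were 0.35, 0.47 and 0.72. The rows under the minimum include a gene that matches by name but is not a receptor subunit. Of these 61 rows, 23 were past 2-fold higher and 4 lower on NL-SFMA against SFMA, with 13.9% and 19.6% of all genes under that rule. The 3 comparisons share the SFMA library.

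**Figure D1:**
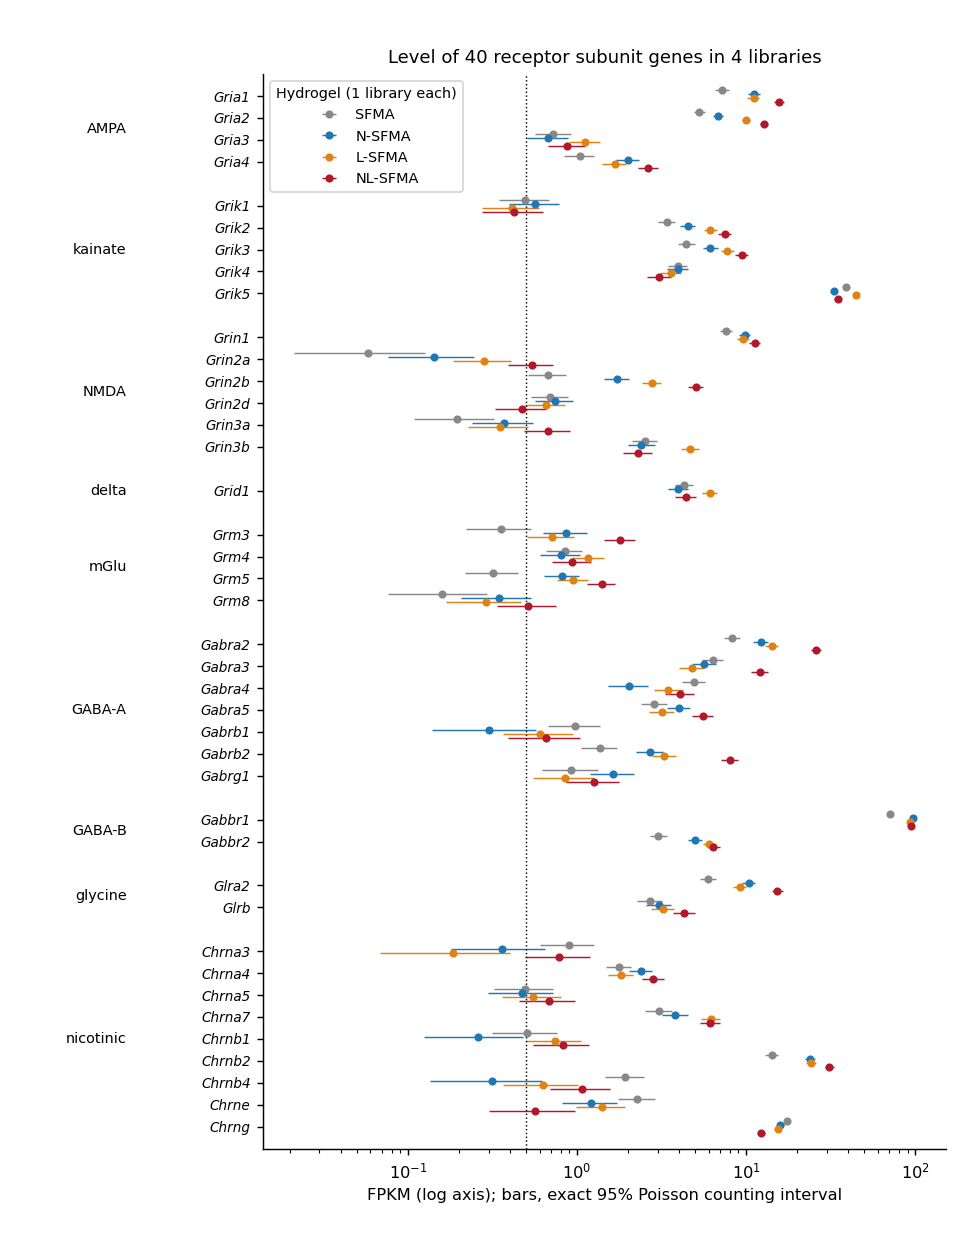
Level in FPKM (log axis) of 40 receptor subunit genes, by receptor class, in the library of each hydrogel, with exact 95% Poisson intervals that cover counting error only; the dotted line marks 0.5 FPKM. NL-SFMA is the highest library for 23 of these genes and SFMA the lowest for 22.

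Long genes were higher and short genes lower on the other hydrogels than on SFMA. Across all genes the log2 difference of NL-SFMA from SFMA correlated with log2 gene model length at r = 0.44, and genes are not independent replicates. The receptor gene models ran from 1615 to 7315 bases, with a median of 3539 against 2890 for all genes. Between 2000 and 4000 bases, the 18 receptor genes had a median log2 difference of 1.03 on NL-SFMA, where the 5567 genes of that length had -0.19. In that range 9 of the 18 were called higher, with 8.1% of all genes of that length. Between 4000 and 8000 bases the median was 1.09 for 18 receptor genes and 0.48 for all 3376 genes. There 10 of the 18 were called higher, with 24.4% of all genes of that length. Between 1000 and 2000 bases the 7 receptor genes had a median of -0.27, where the 2859 genes had -0.79. Of these 7, 0 were called higher and 1 lower, with 6.96% and 40% of all genes of that length. Removing a smooth trend with length, so that each gene is set against genes of like length, gave 18 subunits past 2-fold higher and 2 lower on NL-SFMA, with 12.3% and 11.6% of all genes, and a subunit median of 0.76. Values with the length trend removed are given below for NL-SFMA where they end a call or turn a direction, and for other comparisons in part, so a difference given without one is not shown to be stable against it. On N-SFMA against SFMA the direction turned for Gria2 (0.36 to -0.03), Grin2d (0.08 to -0.15) and Gabra3 (-0.16 to 0.10). On L-SFMA it turned for Gabrg1 (-0.10 to 0.15) and Chrna4 (0.04 to -0.29), and the differences of Gria2 (0.90 to 0.27) and Gabbr1 (0.40 to 0.02) shrank.

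**Figure D2:**
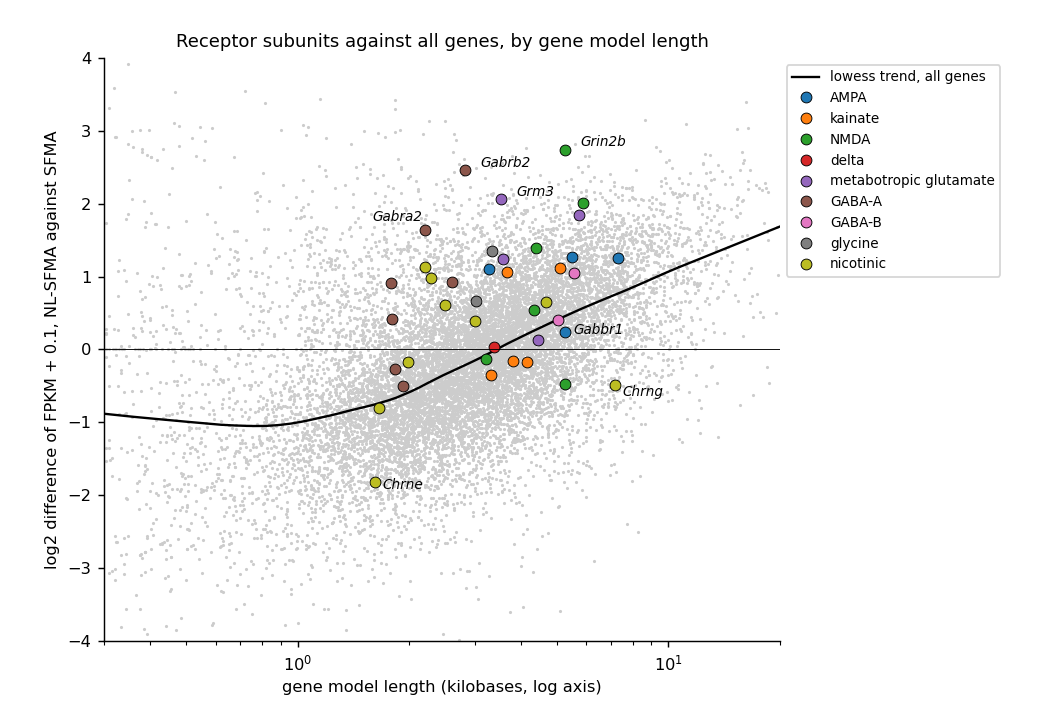
Log2 difference of NL-SFMA from SFMA (FPKM plus 0.1) against gene model length in kilobases (log axis) for all genes at the minimum level (grey), with receptor subunits coloured by class and the lowess trend of all genes in black. GABA-A subunits, many of them short, lie above the trend, while Chrng and Chrne lie below it.

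AMPA receptor subunits were higher on all 3 other hydrogels in sum, at 14.3, 20.6, 23.8 and 31.9 FPKM. Gria1, the subunit GluA1, was at 7.23, 11.1, 11.1 and 15.6 FPKM, the last 2.16-fold above SFMA (95% counting interval 1.92 to 2.45). Gria2, whose edited subunit keeps AMPA receptors nearly closed to calcium, was at 5.30, 6.80, 9.96 and 12.8 FPKM. It was 2.41-fold (2.19 to 2.65) above SFMA on NL-SFMA, a log2 difference of 1.25 that became 0.48 with the length trend removed; its model is the longest of the class. Gria4 stood at 1.04, 1.99, 1.67 and 2.63 FPKM, with a log2 difference of 1.27 on NL-SFMA, or 0.76 with the length trend removed. Gria3 was below the level of the others, at 0.724, 0.676, 1.11 and 0.870 FPKM, and no difference from SFMA was past 2-fold; on NL-SFMA its log2 difference turned from 0.24 to -0.23 with the length trend removed. Gria1 made up 46.5% to 53.9% of the summed AMPA level and Gria2 33.1% to 41.8%, while the share of Gria3 was 5.07% on SFMA and 2.73% on NL-SFMA.

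Of the kainate receptor genes, the principal subunits Grik2 and Grik3 were highest on NL-SFMA. The principal subunit Grik1 and the auxiliary subunits Grik4 and Grik5, which need a principal partner to form a channel, were not. Grik2 was at 3.39, 4.5, 6.14 and 7.45 FPKM. Grik3 was at 4.43, 6.15, 7.74 and 9.39 FPKM. Their folds of NL-SFMA over SFMA were 2.20 (1.91 to 2.54) and 2.12 (1.83 to 2.46), or log2 differences of 0.69 and 0.99 with the length trend removed, both under 2-fold. Grik5, the most abundant ionotropic glutamate receptor gene here, stood at 38.7, 33.0, 44.5 and 34.7 FPKM. Grik4 was at 3.94, 3.93, 3.59 and 3.07 FPKM. The share of Grik5 in the summed kainate level was 76.0% on SFMA and 63.1% on NL-SFMA. Grik1 was at 0.494, 0.562, 0.413 and 0.425 FPKM, highest on N-SFMA. Grid1, the delta receptor subunit that links to presynaptic partners rather than acting as a classical glutamate-gated channel, was at 4.30, 3.95, 6.08 and 4.39 FPKM, highest on L-SFMA.

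Grin2b had the largest log2 difference between NL-SFMA and SFMA of the 43 subunits. It encodes GluN2B, the GluN2 subunit that dominates NMDA receptors of the immature forebrain. Its level was 0.671 (62 reads), 1.72 (140 reads), 2.77 (238 reads) and 5.05 FPKM (377 reads). The 4 counting intervals did not overlap. Its level was above SFMA by 2.57-fold (1.89 to 3.52), 4.12-fold (3.11 to 5.55) and 7.53-fold (5.74 to 10.02). With the length trend removed these were log2 differences of 1.01, 1.48 and 2.28, all still past 2-fold. Grin1, which encodes the obligatory subunit of every NMDA receptor, differed far less, at 7.63, 9.79, 9.58 and 11.2 FPKM (log2 difference 0.55 on NL-SFMA, or 0.29 with the length trend removed), so that the ratio of Grin2b to Grin1 went from 0.0879 on SFMA to 0.176, 0.289 and 0.451.

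The other NMDA subunits differed in their order across hydrogels. Grin2a, the GluN2 subunit that gains ground after birth, was barely detected on SFMA at 0.0580 FPKM (6 reads) and stood at 0.143, 0.280 and 0.539 FPKM on the other hydrogels (13, 27 and 45 reads). Its NL-SFMA level was 9.29-fold (3.95 to 26.6) above SFMA, a wide interval, and its call on L-SFMA ended with the length trend removed (log2 difference 0.78). Grin2d, a GluN2 subunit typical of early development and interneurons, was at 0.694, 0.740, 0.652 and 0.470 FPKM, a log2 difference of -0.48 on NL-SFMA that became -0.93 with the length trend removed. Of the summed level of these 3 GluN2 genes, Grin2b held 47.2%, 66.1%, 74.8% and 83.4%, and Grin2d 48.8%, 28.4%, 17.6% and 7.75%. Grin2c, the GluN2 gene under 0.5 FPKM, was at 0.268, 0.0278, 0.157 and 0.0453 FPKM (22, 2, 12 and 3 reads), and with it in the sum Grin2b held 39.7%, 65.4%, 71.7% and 82.7%. Grin3a, a glycine-binding subunit of juvenile neurons, was at 0.195, 0.369, 0.349 and 0.676 FPKM (15, 25, 25 and 42 reads). Its relative Grin3b followed another order, at 2.52, 2.40, 4.67 and 2.29 FPKM, so that L-SFMA stood alone above the other libraries.

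Among metabotropic glutamate receptors, Grm3 and Grm5 were several-fold higher on NL-SFMA, from low levels. Grm5, a Gq-coupled receptor prominent in the developing cortex, stood at 0.317, 0.811, 0.946 and 1.40 FPKM, 4.41-fold (2.96 to 6.75) above SFMA in the last. Its calls on N-SFMA and L-SFMA ended with the length trend removed (0.85 and 0.86), and that on NL-SFMA did not (1.3). Grm3, a Gi-coupled receptor of neurons and glia, was at 0.354, 0.861, 0.709 and 1.79 FPKM, 5.07-fold (3.15 to 8.48) above SFMA on NL-SFMA. Grm8 went from 0.159 FPKM on SFMA (10 reads) to 0.512 on NL-SFMA (26 reads). Grm4 had 0.8 to 1.17 FPKM, with its highest level on L-SFMA, and its log2 difference on NL-SFMA turned from 0.13 to -0.15 with the length trend removed.

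GABA-A receptor genes had a summed level of 53.4, 66.5, 75.7 and 132 FPKM, 2.48-fold higher on NL-SFMA than on SFMA. Of the 10 measured subunits 5 were past 2-fold higher on NL-SFMA (14.7% of all genes), and 8 with the length trend removed (12.3% of all genes). Gabra2, the alpha subunit most typical of embryonic cortex, stood at 8.25, 12.2, 14.1 and 25.9 FPKM. It was 3.14-fold (2.76 to 3.59) above SFMA on NL-SFMA. Its share of the summed alpha level was 35.7%, 49.2%, 53.1% and 52.2%, so that it led the alpha subunits in every library.

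The remaining GABA-A subunits did not all follow. Gabrb2, the beta subunit of the most common receptor of the mature brain, was at 1.37, 2.70, 3.29 and 7.98 FPKM, 5.83-fold (4.47 to 7.69) above SFMA in the last. Gabra5, an alpha subunit of extrasynaptic receptors, was at 2.86, 4.00, 3.17 and 5.54 FPKM. Its log2 difference on NL-SFMA was 0.93, or 1.23 with the length trend removed.

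The alpha genes Gabra3 and Gabra4 and the beta gene Gabrb1 had lower FPKM on N-SFMA and L-SFMA than on SFMA, though for Gabra3 on N-SFMA the counting interval of the ratio spanned 1 (0.717 to 1.11) and the direction turned with the length trend removed. Gabra3 was at 6.34, 5.65, 4.78 and 12.1 FPKM, so that NL-SFMA stood alone above the other libraries. Its log2 difference from SFMA was 0.92 on NL-SFMA and 1.61 with the length trend removed. Gabra4 was at 4.91, 2.02, 3.47 and 4.04 FPKM and Gabrb1 at 0.976, 0.303, 0.604 and 0.659 FPKM (33, 9, 19 and 18 reads), both highest on SFMA and lowest on N-SFMA. On N-SFMA Gabra4 was 2.44-fold lower than on SFMA (1.79 to 3.36) and Gabrb1 3.22-fold lower (1.51 to 7.66). With the length trend removed the Gabra4 difference was -0.99, just under 2-fold, and both genes stood above SFMA on NL-SFMA (0.39 and 0.12) rather than below it (-0.27 and -0.50). Gabrg1 was at 0.922, 1.63, 0.854 and 1.26 FPKM, with a log2 difference on NL-SFMA of 0.41, or 1.1 with the length trend removed.

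Gene order did not sort these subunits into one pattern. Most GABA-A genes lie in clusters, and in the RefSeq order of rat protein-coding genes Gabrb1, Gabra4, Gabra2 and Gabrg1 follow each other with Cox7b2 between Gabra4 and Gabra2. Gabra2 was past 2-fold higher on NL-SFMA, while its neighbours Gabra4 and Gabrb1 were past 2-fold lower on N-SFMA and under 2-fold on NL-SFMA.

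**Figure D3:**
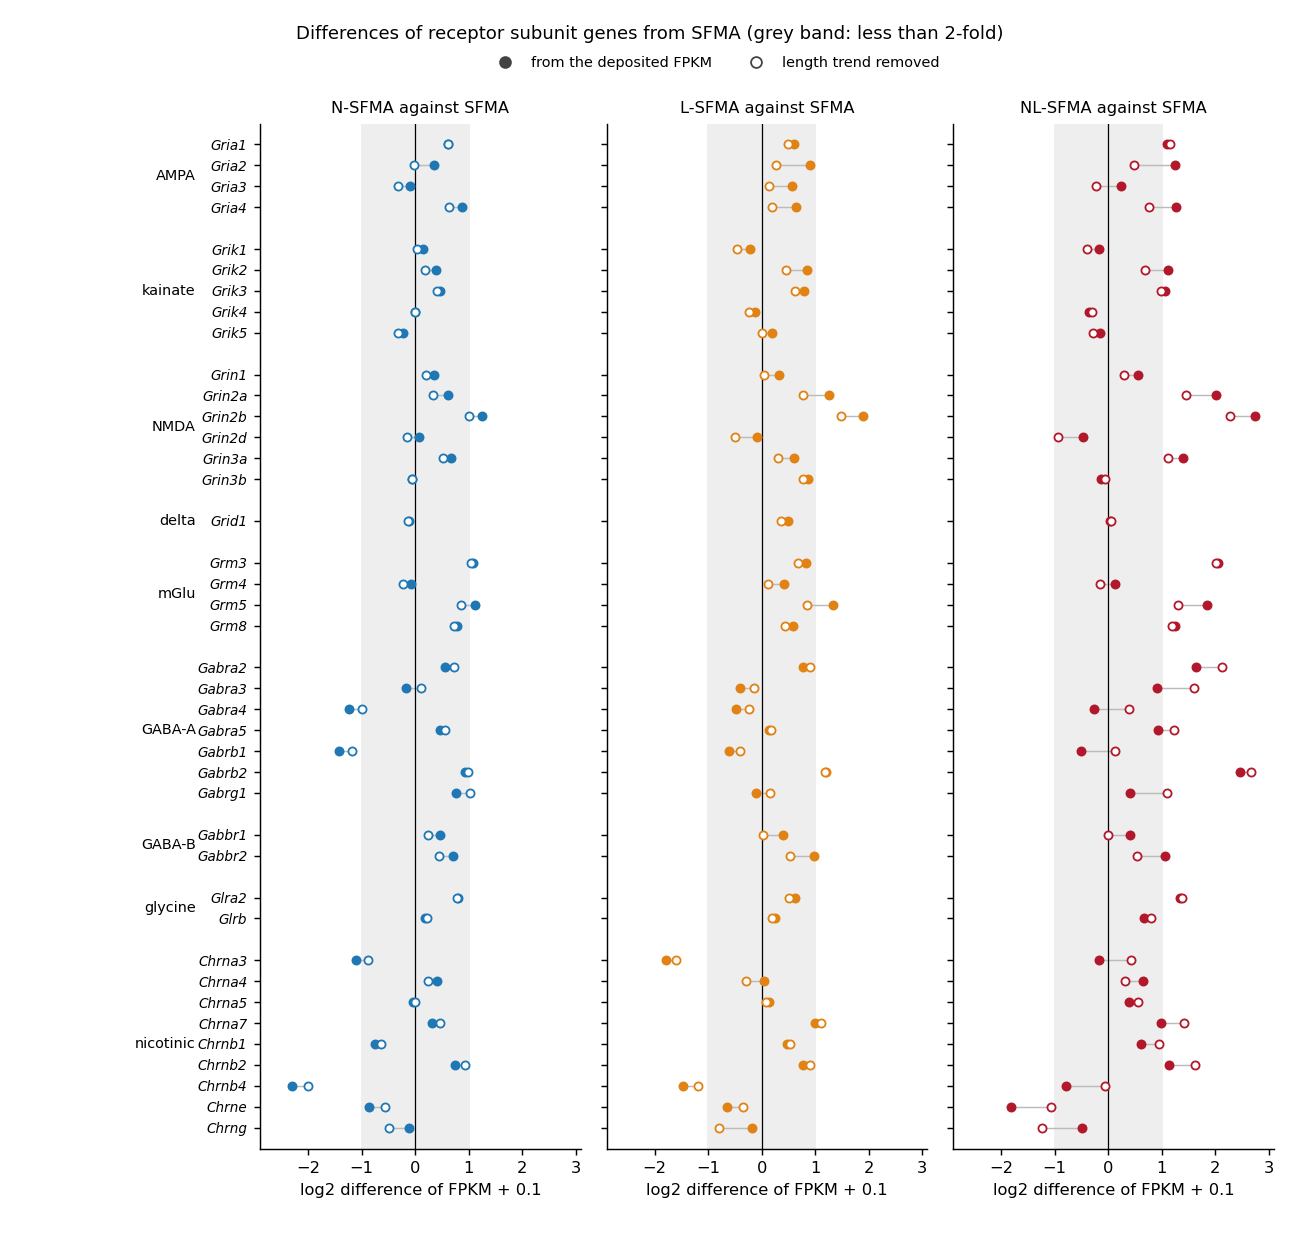
Log2 difference of FPKM plus 0.1 from SFMA for 40 receptor subunit genes on N-SFMA, L-SFMA and NL-SFMA, from the deposited values (filled) and with the trend on gene length removed (open); the grey band covers less than 2-fold. On NL-SFMA 16 filled points lie past the band to the right and 1, Chrne, to the left.

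The GABA-B receptor works as a pair in which Gabbr1 binds GABA and Gabbr2 couples to the G protein. Gabbr1 was the most abundant receptor gene in every library, at 70.7, 97.0, 93.4 and 94.0 FPKM. The 3 other hydrogels were thus above SFMA by a like fold, 1.37 (1.33 to 1.42), 1.32 (1.28 to 1.37) and 1.33 (1.28 to 1.38), which the length trend covered on NL-SFMA (log2 difference 0.00 after removal, 0.41 before). Gabbr2 was at 3.02, 4.98, 6.06 and 6.40 FPKM, 2.12-fold (1.83 to 2.45) above SFMA on NL-SFMA, or 0.54 on the log2 scale with the length trend removed. The ratio of Gabbr2 to Gabbr1 went from 0.0428 on SFMA to 0.0681 on NL-SFMA.

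Glycine receptors of the embryonic brain are mostly built from the alpha subunit of Glra2. It stood at 5.94, 10.4, 9.16 and 15.3 FPKM, 2.57-fold (2.26 to 2.93) above SFMA on NL-SFMA. Its partner Glrb, which ties the receptor to the scaffold gephyrin, was at 2.68, 3.05, 3.21 and 4.30 FPKM, 1.60-fold (1.28 to 2.01) above SFMA on NL-SFMA. The ratio of Glrb to Glra2 was 0.452 on SFMA and 0.282 on NL-SFMA.

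Of the 9 nicotinic receptor genes, 1 was past 2-fold higher and 1 lower on NL-SFMA against SFMA. Of all genes, 14.7% were called higher and 20.1% lower there. Chrnb2, the beta subunit of the main brain receptor, was at 14.1, 23.9, 24.1 and 31.1 FPKM, 2.20-fold (1.98 to 2.45) above SFMA. Its usual partner Chrna4 was at 1.76, 2.38, 1.81 and 2.82 FPKM (log2 difference 0.65 on NL-SFMA, or 0.32 with the length trend removed). Chrna7, which forms calcium-permeable channels of its own, was at 3.05, 3.81, 6.20 and 6.12 FPKM, with both hydrogels that carry the letter L above the other pair. Its log2 difference was 1.00 on L-SFMA, at the threshold, and 0.98 on NL-SFMA, or 1.11 and 1.43 with the length trend removed. The L-SFMA call ended under TMM scaling (0.94), DESeq2 scaling (0.94) and without mitochondrial reads (1.00, just under the threshold) and with larger pseudocounts.

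Chrnb4 and Chrna3, which form the receptor of autonomic ganglia, were highest on SFMA. Chrnb4 was at 1.93 (56 reads), 0.313 (8 reads), 0.629 (17 reads) and 1.07 FPKM (25 reads), and so 6.15-fold (2.92 to 14.9) lower on N-SFMA and 3.07-fold (1.76 to 5.63) lower on L-SFMA. Chrna3 was at 0.893, 0.360, 0.186 and 0.785 FPKM (31, 11, 6 and 22 reads), and so 4.81-fold (1.98 to 14.1) lower on L-SFMA. Its call on N-SFMA ended with the length trend removed (-0.89), and its log2 difference on NL-SFMA turned from -0.17 to 0.43. That of Chrnb4 on NL-SFMA went from -0.80 to -0.06. The genes lie side by side and within 2 kb of each other in the RefSeq order, next to Chrna5, which held 0.474 to 0.680 FPKM in the 4 libraries. The sources used here do not state the strand setting of the counting, so values of overlapping genes are uncertain. This holds for Chrne below and, by the protein-coding overlaps in RefSeq, for Grin1 (Lrrc26), Grin2d (Grwd1), Grin3a (Ppp3r2), Grin3b (Tmem259), Grm3 (Elapor2), Chrna4 (Col20a1) and Chrnb1 (Zbtb4), and for Gria1 and Grik1, which overlap loci without a gene name.

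The muscle-type subunits Chrne and Chrng were highest on SFMA and lowest on NL-SFMA. Chrne was at 2.26, 1.20, 1.40 and 0.568 FPKM (64, 30, 37 and 13 reads), the one subunit past 2-fold lower on NL-SFMA, by 3.97-fold (2.17 to 7.87), a log2 difference of -1.82, or -1.06 with the length trend removed. RefSeq places it over Gp1ba and an uncharacterised gene. Chrng stood at 17.4, 15.9, 15.3 and 12.3 FPKM, a log2 difference on NL-SFMA of -0.49, or -1.25 with the length trend removed. Its gene model of 7173 bases is the longest of the nicotinic genes, and RefSeq has Eif4e2 within 2 kb of it. Chrna1, the alpha subunit without which the muscle receptor does not form, was at no more than 0.13 FPKM in any library, and whether reads of a neighbour enter Chrng was not tested. Chrnb1 was at 0.260 to 0.822 FPKM. Of the summed nicotinic level, Chrng held 41.0% on SFMA and 21.9% on NL-SFMA, and Chrnb2 33.3% and 55.3%.

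**Figure D4:**
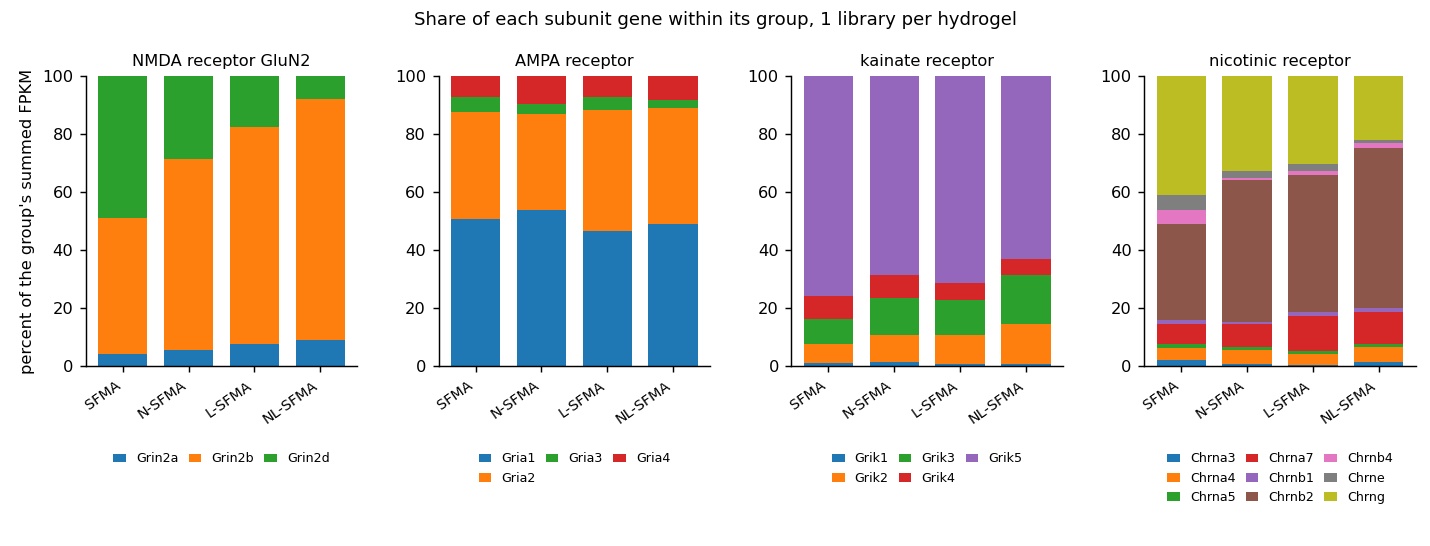
Share in percent of each subunit gene in the summed FPKM of its group, for the GluN2, AMPA, kainate and nicotinic genes that reached 0.5 FPKM, on each hydrogel. Grin2b goes from 47.2% to 83.4% of the GluN2 level between SFMA and NL-SFMA, while Gria1 keeps 46.5% to 53.9% of the AMPA level.

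NL-SFMA was next set against the hydrogels that carry 1 of its letters. Against N-SFMA, 9 subunits were past 2-fold higher (6.1% of all genes) and 0 lower (9.69%). Against L-SFMA, 4 were higher (3.16%) and 1 lower (12.2%). The median log2 differences were 0.49 and 0.36, against -0.06 and -0.15 for all genes. The size factors of DESeq2 move the median of all genes to 0.02 in the comparison with L-SFMA, where 5.22% of all genes are then called higher and 8.73% lower, and to -0.01 in that of NL-SFMA with SFMA. GABA-A subunits held 5 of the 9 calls against N-SFMA, Gabra2, Gabra3 and Gabrb2 among them, and Grin2a, Grin2b, Chrnb1 and Chrnb4 were called too. Gabrb2 was 2.95-fold (2.38 to 3.68) above N-SFMA and 2.43-fold (1.99 to 2.96) above L-SFMA. Gabra3 was 2.14-fold (1.75 to 2.61) above N-SFMA and 2.52-fold (2.06 to 3.1) above L-SFMA. Grm3 and Chrna3 were also called higher than on L-SFMA, and Chrne lower, the last call ending with the length trend removed (-0.74).

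For several subunits the NL-SFMA difference was close to the sum of those on N-SFMA and L-SFMA. The share of all genes as close to that sum was not counted. On the log2 scale NL-SFMA departed from that sum by -0.11 for Gria1, 0.00 for Gria2 and -0.06 for Glra2. Grin2b (-0.40), Gabbr1 (-0.45), Grm5 (-0.61) and Gabbr2 (-0.63) were among those further below that sum. Gabra3 (1.48), Gabra4 (1.46), Gabrb1 (1.53), Chrna3 (2.74) and Chrnb4 (2.97) lay far above it, each being lower on both N-SFMA and L-SFMA than on SFMA, with NL-SFMA above both. Grin3b lay below it (-0.93), as its higher level on L-SFMA was not seen on NL-SFMA. No spread between cultures stands behind these departures, and Gabrb1, Chrna3 and Chrnb4 rest on 33 reads or fewer in each library but for 56 reads of Chrnb4 on SFMA.

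**Figure D5:**
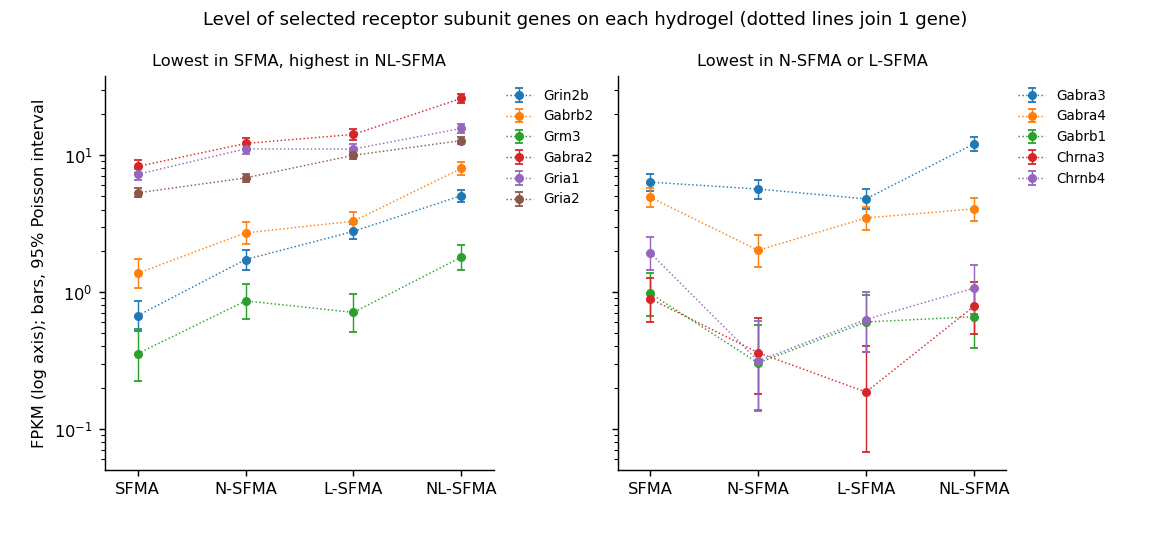
Level in FPKM (log axis) on each hydrogel of 6 subunits that are lowest on SFMA and highest on NL-SFMA, and of 5 that are lowest on N-SFMA or L-SFMA; bars are exact 95% Poisson intervals and dotted lines join the values of a gene. Grin2b goes from 0.671 to 5.05 FPKM, while Chrnb4 goes from 1.93 FPKM on SFMA to 0.313 on N-SFMA and 1.07 on NL-SFMA.

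Of the 30 receptor genes whose promoter is in the RefSeq table, 3 are shown because they mark the ends of the results: Gabrb2 has the largest difference upward on NL-SFMA among those described in every library, Chrne the largest downward, and Gabbr1 the highest mean level. Each covers 250 bases before to 50 after the RefSeq start (build GRCr8), 5′ to 3′ on the gene's strand, with capitals marking the GC box GGGCGG on either strand, the motif bound by Sp1-type factors. Gabrb2 (chr10:27439543-27439842, plus strand) has 0 GC boxes and 9 CpG dinucleotides. Chrne (chr10:55834105-55834404, minus strand) has 0 and 2. Gabbr1 (chr20:1499187-1499486, minus strand) has 4 GC boxes and 32 CpG dinucleotides.
Gabrb2: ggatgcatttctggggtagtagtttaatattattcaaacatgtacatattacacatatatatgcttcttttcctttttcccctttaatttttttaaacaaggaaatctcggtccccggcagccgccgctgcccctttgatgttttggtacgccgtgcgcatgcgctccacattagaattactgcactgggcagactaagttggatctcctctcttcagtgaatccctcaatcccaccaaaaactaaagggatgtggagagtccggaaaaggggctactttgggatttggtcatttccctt
Chrne: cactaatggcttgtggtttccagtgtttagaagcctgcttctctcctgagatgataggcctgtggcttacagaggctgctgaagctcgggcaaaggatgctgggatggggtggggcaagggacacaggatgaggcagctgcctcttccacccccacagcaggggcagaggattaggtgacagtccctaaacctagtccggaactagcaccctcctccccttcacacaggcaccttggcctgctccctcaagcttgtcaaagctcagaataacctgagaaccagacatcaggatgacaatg
Gabbr1: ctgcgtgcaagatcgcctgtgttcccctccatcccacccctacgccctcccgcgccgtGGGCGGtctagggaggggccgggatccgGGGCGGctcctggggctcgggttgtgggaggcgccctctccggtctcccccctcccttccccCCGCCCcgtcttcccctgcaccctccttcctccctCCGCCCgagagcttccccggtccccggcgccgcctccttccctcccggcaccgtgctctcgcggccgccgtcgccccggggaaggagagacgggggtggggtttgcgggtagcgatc
A GC box was found in 16 of the 30 receptor promoters (53.3%) and in 33.1% of all 33469 promoters of the table. The TATA box letters TATAAA, on either strand, were in 3 of 30 (10%) and in 14.2% of all, and the cyclic AMP element core TGACG in 6 of 30 (20%) and in 21.2% of all. The median receptor promoter held 14.5 CpG dinucleotides, against 7 for all. These counts describe the letters in the window, and 13 receptor genes are not in that table.

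Under 0.5 FPKM were 18 matching genes, among them Chrna1, Chrna9, Gabrd, Gabre, Gabrg3, Gabrp, Gabrq, Gabrr1, Gabrr2, Gabrr3, Glra4, Grin2c, Grm2, Grm6 and Grm7. The highest of them was Grm2, a Gi-coupled receptor, at 0.135, 0.406, 0.462 and 0.289 FPKM. Gabrd, of tonic GABA-A receptors, reached 0.0865 FPKM at most and had no read on L-SFMA or NL-SFMA, where a count of 0 allows up to 0.184 and 0.212 CPM (3 reads, scaled to library size).

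Genes that act with the receptors were mixed, and the counts that follow are to be read against the 14.7% of all genes called higher and 20.1% called lower on NL-SFMA. Of 22 measured auxiliary subunits of AMPA, kainate and delta receptors, 1 was past 2-fold higher and 3 lower on NL-SFMA against SFMA, with a median log2 difference of 0.12. Without the length trend 4 were higher and 0 lower, with 12.3% and 11.6% of all genes. The higher one was Shisa7, an auxiliary protein of AMPA and GABA-A receptors (2.46, 5.16, 6.32 and 9.49 FPKM), while the AMPA receptor partner Cacng7 (75.4, 52.6, 65.7 and 37.3 FPKM) and Shisa8 (2.61, 2.12, 2.06 and 0.818 FPKM) were among the lower (-0.52 and -0.93 with the length trend removed). Cnih2, which escorts AMPA receptors out of the endoplasmic reticulum, was at 131, 109, 115 and 67.4 FPKM. Of 25 excitatory scaffold genes 6 were higher and 3 lower, with a median of 0.25 (-0.16 with the length trend removed). Homer1, which links metabotropic receptors to the scaffold, stood at 4.89, 6.97, 8.40 and 14.7 FPKM, and Lrrc7 at 1.42, 1.92, 2.55 and 4.33 FPKM. Dlgap1 (2.57, 4.77, 5.15 and 7.65 FPKM) and Sorbs2 (8.58, 16.7, 18.9 and 26.1 FPKM) were under 2-fold with the length trend removed (0.77 and 0.49). Of 20 inhibitory scaffold and trafficking genes, 4 were higher and 1 lower (median 0.32), Shisa7 again among them. The higher Macf1 (2.49) and Plcl2 (1.19) were under 2-fold with the length trend removed (0.37 and 0.33), as was the lower Gabarapl1, a small trafficking protein (-1.28 and -0.58).

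The lists of GABA-B partners, transmitter handling and other receptors follow. Of 10 GABA-B auxiliary subunits and nicotinic chaperones 1 was higher and 2 lower on NL-SFMA, with the GABA-B partner Kctd12 at 5.99, 9.85, 10.8 and 14.3 FPKM and Ly6h, which holds back nicotinic receptors, at 143, 99.4, 109 and 35.7 FPKM. The nicotinic chaperone Ric3 (2.31, 4.26, 4.99 and 4.09 FPKM) and Lypd6 (2.42, 4.35, 3.59 and 3.29 FPKM) were under 2-fold, though the log2 difference of Lypd6 went from 0.43 to 1.26 with the length trend removed. Glutamate transport and metabolism had 5 of 13 higher and 1 lower (median 0.32). Among them the vesicular transporter Slc17a6 was at 3.13, 5.05, 5.94 and 7.04 FPKM (1.14, or 0.98 with the length trend removed) and the glutamine transporter Slc38a2 at 30.9, 46.2, 51.0 and 77.9 FPKM. The glial glutamate transporter Slc1a3 was lower at 22.1, 6.39, 8.23 and 10.6 FPKM. GABA, glycine and acetylcholine synthesis and transport had 0 of 10 higher and 2 lower (median -0.15), with the GABA-synthesising Gad2 at 18.7, 19.0, 17.6 and 10.9 FPKM and the GABA transporter Slc6a11 at 8.76, 4.24, 5.49 and 2.98 FPKM. With the length trend removed their log2 differences on NL-SFMA went from -0.78 to -0.17 and from -1.53 to -0.97, so that neither was past 2-fold. The chloride importer Slc12a2 was at 7.59, 6.40, 9.02 and 14.6 FPKM (0.93, or 0.28 with the length trend removed), and the GABA-degrading Abat at 6.86, 4.88, 5.94 and 4.64 FPKM (-0.55, or 0.13). Of 3 genes of the Adar family, Adarb2, named after its values were seen, was past 2-fold higher. Adarb1, which edits the Gria2 transcript, was at 3.1, 4.85, 6.52 and 5.65 FPKM, and Adar at 13.3, 21.3, 26.0 and 23.6 FPKM (0.85 and 0.83, or 0.11 and 0.23 with the length trend removed). Monoamine, muscarinic, purine and adenosine receptors, the nearest set of other receptors, had 3 of 20 higher and 5 lower, with a median of -0.07. The purine receptor P2rx4 was among the lower, at 5.15, 2.76, 2.98 and 2.05 FPKM (-1.29, or -0.85 with the length trend removed), and Adora1, Adora2a and Chrm4 were under 2-fold. On N-SFMA and on L-SFMA against SFMA, no list had more than 3 genes past 2-fold higher or more than 2 lower. Of all genes, 3.45% were called higher and 6.44% lower on N-SFMA, and 8.19% and 5.75% on L-SFMA. After removal of the length trend, 12.3% of all genes were called higher and 11.6% lower on NL-SFMA. The list counts were then 2 higher and 3 lower for excitatory scaffolds and 1 and 0 for inhibitory ones. They were 2 and 2 for GABA-B partners and nicotinic chaperones and 4 and 2 for glutamate transport. For the GABA, glycine and acetylcholine list they were 0 and 0, for the Adar family 1 and 0, and for the other receptors 4 and 3.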

How the data were processed

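Poly(A) RNA was measured in 4 libraries, 1 per hydrogel. Per the labels' protocols, 1.5 µg of RNA went into NEBNext Ultra libraries. The deposited raw counts are whole numbers. HISAT2 (no version) and HTSeq 0.13.5 are named in the submitters' processing notes, beside the builds GRCh38 and mRatBN7.2 with no role given. The deposited FPKM values by the authors equal the count scaled by gene model length and by the counted reads of the library; the model lengths recovered from both columns were whole to within 2e-09 bases. No source used here states the filters or the strand setting.

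Groups came from the sample titles. Differences are log2 ratios of FPKM plus 0.1, called at 2-fold among genes with at least 0.5 FPKM in at least 1 library. Single genes are given as CPM ratios with exact (Clopper-Pearson) 95% intervals conditional on both counts, and levels with exact Poisson intervals. These intervals reflect counting alone: no molecular identifiers are described, and PCR copies are not separate molecules. With 1 library per hydrogel no test was run between hydrogels and no p-value is given. The length trend was a lowess fit (span 0.3, statsmodels 0.14.6) over all 13670 genes. Scalings tried were TMM (edgeR 4.0.16) and median-of-ratios (DESeq2 1.42.0), used for size factors only. The call rule was tested on simulated counts. Members with at least 2 FPKM, or past 2-fold with 30 reads in the higher library, are described in every library, and up to 4 genes of each other list by their difference on NL-SFMA. The members and gene lists were chosen with earlier results of these data known. Gene order and promoters are from RefSeq (GRCr8), which is not a build named in the notes, so no coordinates were joined to the files. Some genes enter the counts and sums but are not reported by name or plotted here.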

Additional observations from a re-analysis of the deposited data

Results flagged for a closer look

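Of the 43 subunits, 4 differed in opposite directions for 1 letter of the hydrogel name, depending on whether the other letter was present, with counting intervals on opposite sides of 1. How many of all genes meet this rule was not counted, so these 4 are not shown to be more than the usual share. A related pattern, highest on SFMA with NL-SFMA above both N-SFMA and L-SFMA, was counted over all genes. It held for Gabra4, Gabrb1, Chrna3 and Chrnb4, or 9.3% of the subunits, and for 4.38% of all genes. The difference between the settings was not tested, since each hydrogel had 1 library. Gabra3 was at 0.754 (95% counting interval 0.603 to 0.942) of its SFMA level on L-SFMA, yet NL-SFMA stood at 2.14 times (1.75 to 2.61) N-SFMA. Gabra4 was at 0.707 (0.547 to 0.911) on L-SFMA against SFMA and at 2.01 (1.44 to 2.82) on NL-SFMA against N-SFMA. Chrnb4 was at 0.326 (0.178 to 0.569) and 3.40 (1.49 to 8.73) for the same pairs. Chrna3 was at 0.208 (0.0709 to 0.506) and 2.18 (1.01 to 4.97) for them, and it also changed sides for the letter N, with 0.404 (0.183 to 0.825) on N-SFMA against SFMA and 4.23 (1.66 to 12.7) on NL-SFMA against L-SFMA. All 4 have gene models under 2000 bases. With the length trend removed, the L-SFMA ratios to SFMA of Gabra3 (0.901, 0.72 to 1.13) and Gabra4 (0.837, 0.647 to 1.08) had intervals that span 1, so their intervals were no longer on opposite sides of it. Those of Chrnb4 (0.399, 0.217 to 0.697) and Chrna3 (0.239, 0.0815 to 0.581) stayed below 1. The NL-SFMA ratios to N-SFMA were then 2.80 for Gabra3, 2.61 for Gabra4, 4.53 for Chrnb4 and 2.77 for Chrna3, and for the letter N those of Chrna3 were 0.471 (0.214 to 0.963) and 5.50 (2.16 to 16.6).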

How the results depend on the processing

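No paired analysis was possible because each hydrogel has 1 library, and for the same reason no library could be left out. The median difference of the subunits stayed above 0 in all 5 comparisons under each of the 10 alternatives, at 0.50 to 1.03 for NL-SFMA against SFMA, 0.20 to 0.58 for L-SFMA and 0.21 to 0.41 for N-SFMA. Past 2-fold on NL-SFMA against SFMA under every alternative with that rule were, among others, Gria1, Grin2b, Grm3, Gabra2, Gabrb2, Glra2 and Chrnb2 (higher) and Chrne (lower). TMM scaling, leaving out mitochondrial reads and a minimum of 30 reads moved none of the counts by more than 1.5 times.

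Counts that moved further are given in turn for NL-SFMA, L-SFMA and N-SFMA against SFMA, then for NL-SFMA against N-SFMA and against L-SFMA. A pseudocount of 1 FPKM, which shrinks the folds of genes near 1 FPKM, left 10, 1, 0, 4 and 2 subunits higher (9.15%, 3.01%, 0.775%, 1.95% and 0.790% of all genes). It left 0 lower on L-SFMA, 1 on N-SFMA and 0 on NL-SFMA against L-SFMA (2.76%, 2.40% and 6.23% of all genes). A pseudocount of 0.5 FPKM left 2 higher on L-SFMA, 0 on N-SFMA, 5 against N-SFMA and 2 against L-SFMA (4.95%, 1.65%, 3.44% and 1.49% of all genes). It left 2 lower on N-SFMA and 0 on NL-SFMA against L-SFMA (3.91% and 8.38% of all genes). A minimum of 1 FPKM, which leaves 34 subunits, gave 1 lower on L-SFMA and 2 on N-SFMA (4.99% and 5.22% of all genes). With no minimum, 10 were higher on L-SFMA and 6 on N-SFMA (8.84% and 4.63% of all genes), and 4, 7 and 1 were lower on NL-SFMA, on N-SFMA and on NL-SFMA against N-SFMA (19.6%, 8.09% and 10.4%). With the length trend removed, 3 were higher on L-SFMA and 8 on NL-SFMA against L-SFMA (5.46% and 5.24% of all genes). Then 2 were lower on NL-SFMA, 2 on N-SFMA and 0 on NL-SFMA against L-SFMA (11.6%, 4.61% and 6.94% of all genes). DESeq2 size factors gave 7 higher on NL-SFMA against L-SFMA (5.22% of all genes). A 1.5-fold rule gave 20 higher on L-SFMA, 13 on N-SFMA, 20 on NL-SFMA against N-SFMA and 17 against L-SFMA, with 2, 4, 1 and 2 lower on NL-SFMA, on L-SFMA, on NL-SFMA against N-SFMA and on that against L-SFMA. The shares of all genes called higher under this rule were 21.1%, 12.4%, 17.7% and 11.3%. Those called lower were 33.3%, 14.7%, 22.7% and 26.6%, in the order of the lower counts. Depth limits subunits with few reads, such as Grm8 on NL-SFMA against SFMA (26 and 10 reads, ratio interval 1.50 to 7.48).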
